A study of Rattus norvegicus with 24 samples.

Results

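The dopamine genes Th and Drd2 were followed in rat amygdala and dorsal raphe. Their rows, ENSRNOG00000020410 (Th) and ENSRNOG00000008428 (Drd2), were 2 of the 32662 Ensembl gene IDs in each deposited count table, and both were present in all 24 libraries. The tables carry no gene symbols, and these 2 names came with the choice of the genes. The rats were 60 days old and belonged to 2 lines, bred for a high or a low response to novelty and labelled High Responder and Low Responder. Each line gave 6 libraries of amygdala and 6 of dorsal raphe, with no treatment named in the labels, and every group is a brain dissection that mixes many cell types. Sex and the number of animals behind each library are not stated, so each p-value reflects only how far these libraries vary, some of which may be technical.

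Th encodes tyrosine hydroxylase, the enzyme that turns tyrosine into L-DOPA and limits the rate of dopamine and noradrenaline synthesis, so its transcript marks neurons that make these transmitters. The dorsal raphe is best known for its serotonin neurons, and it also holds a group of dopamine neurons that continues into the neighbouring midbrain. Drd2 encodes the D2 dopamine receptor, an inhibitory receptor coupled to Gi/o proteins. It is abundant in the striatum on output neurons of the indirect pathway, it serves as an autoreceptor on dopamine neurons, and it is also found in parts of the amygdala. The striatum lies beside the amygdala and dopamine neurons lie around the raphe, so both genes were taken as possible signs of what a dissection included.

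The promoters of both genes are printed because they are the stretches in front of the transcripts that were counted and because they differ in their sequence elements. Each holds the 250 bases before the gene start, from RefSeq on the build GRCr8, whereas the counts were made on rn6. Capitals mark matches to TGACGTCA (the cAMP response element) and to GGGCGG or its reverse complement (a GC box), searched on both strands together with TATAAA.
Th promoter, chr1:207508219-207508468, minus strand: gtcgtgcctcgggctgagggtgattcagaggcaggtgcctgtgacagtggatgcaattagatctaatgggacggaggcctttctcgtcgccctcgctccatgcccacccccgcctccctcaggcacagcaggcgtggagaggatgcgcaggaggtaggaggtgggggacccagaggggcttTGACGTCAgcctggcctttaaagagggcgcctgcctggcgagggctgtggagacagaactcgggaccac
Drd2 promoter, chr8:58605153-58605402, plus strand: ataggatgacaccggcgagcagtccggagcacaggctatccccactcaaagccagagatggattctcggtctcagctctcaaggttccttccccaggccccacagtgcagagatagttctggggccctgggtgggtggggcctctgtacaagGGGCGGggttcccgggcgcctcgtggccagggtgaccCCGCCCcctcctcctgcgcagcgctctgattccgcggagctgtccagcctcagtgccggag

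The Th promoter held the cAMP response element once, 69 to 62 bases before the start, an element that 1.59% of 33469 promoters of this length held. It had no GGGCGG match. The Drd2 promoter had a GC box on each strand, 98 to 93 and 61 to 56 bases before the start, and 30.5% of promoters held at least 1 such box. TATAAA was in neither window and in 12.9% of promoters. In the same RefSeq table, 0 other genes overlapped Th and 0 overlapped Drd2, whose neighbour is Ankk1. A match of letters is a description of the sequence and not a measured binding site.

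The libraries held between 9232983 and 20194601 counts each and detected 18455 to 19821 genes. The deposited values are raw read counts per gene. Levels are given in CPM (the read count relative to the TMM-scaled total of its library), with 95% exact Poisson intervals that cover counting error only. CPM was not divided by transcript length, so the 2 genes are not compared with each other in level. The submitters' library numbers ran in 2 stretches for each line and region, called earlier and later here, and all low-responder libraries were numbered before all high-responder ones, so number order and line cannot be told apart over the whole series. What the numbers mark is not stated.

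In the amygdala, Th was low in every library. High-responder libraries 1 to 6 stood at 2.68, 2.62, 1.99, 2.62, 1.54 and 2.40 CPM, from 17 to 54 counts. Low-responder libraries 1 to 6 stood at 2.21, 2.34, 2.81, 1.59, 1.67 and 1.89 CPM, from 19 to 37 counts. The lines overlapped, and the lowest and highest of the 12 libraries, high-responder library 5 (95% interval 0.899 to 2.47) and low-responder library 3 (1.98 to 3.87), had overlapping counting intervals.

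In the dorsal raphe, Th was much higher and uneven. High-responder libraries 1 to 6 stood at 42.4, 17.2, 15.6, 48.1, 45.8 and 18.2 CPM, from 214 to 870 counts. Low-responder libraries 1 to 6 stood at 11.4, 8.57, 15.4, 46.0, 58.0 and 24.6 CPM, from 96 to 710 counts. In both lines the libraries fell on either side of a gap that ran from 24.6 to 42.4 CPM. Low-responder library 2 (interval 6.94 to 10.46) and low-responder library 5 (53.8 to 62.5) differed 6.77-fold, far beyond counting error.

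Drd2 showed the reverse pattern of spread, wide in the amygdala. High-responder amygdala libraries 1 to 6 stood at 46.4, 9.02, 39.8, 55.2, 15.0 and 18.0 CPM. Low-responder amygdala libraries 1 to 6 stood at 8.33, 28.8, 32.3, 19.9, 10.6 and 3.27 CPM. From low-responder library 6, with 45 counts of 13938794 and an interval of 2.38 to 4.37 CPM, to high-responder library 4, with 590 counts of 10813896 and an interval of 50.8 to 59.8 CPM, Drd2 differed 16.9-fold. The library with the least Drd2 was therefore the more deeply sequenced of these 2.

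In the dorsal raphe, Drd2 was close to even. High-responder libraries 1 to 6 stood at 23.4, 22.2, 24.3, 21.6, 21.4 and 23.3 CPM. Low-responder libraries 1 to 6 stood at 22.0, 21.7, 22.7, 26.6, 16.3 and 19.4 CPM. The highest of the 12 was 1.64-fold above the lowest, and low-responder libraries 4 and 5 were the ends of the range.

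**Figure D1:**
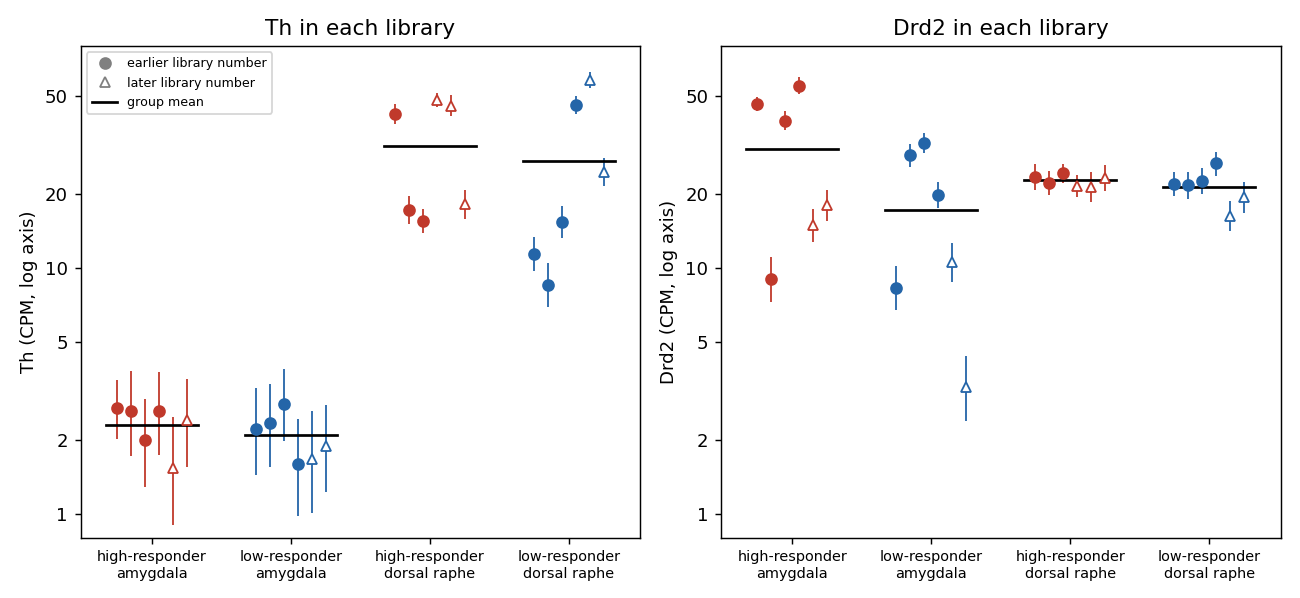
Level of Th (left) and Drd2 (right) in each of the 24 libraries, in CPM on a log axis, by line and region. Points are libraries 1 to 6 from left to right in each group, error bars are 95% Poisson counting intervals and black lines are group means: Th separates the regions, while Drd2 runs from 3.27 to 55.2 CPM in the amygdala and from 16.3 to 26.6 CPM in the dorsal raphe.

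The regions were compared over both lines, with edgeR's quasi-likelihood test on all 24 libraries. The mean of Th was 2.20 ± 0.451 CPM for amygdala libraries and 29.3 ± 17.4 CPM for those of the dorsal raphe (SD, n = 12 each), a log2 difference of -3.73 (SE 0.31, 95% interval -4.37 to -3.08, edgeR adjusted p = 1.68e-10), which is 13.3-fold lower in the amygdala. All 12 dorsal raphe libraries lay above all 12 amygdala libraries, and the lowest dorsal raphe library was 3.05-fold above the highest amygdala one. Of 14977 genes tested, 65.8% passed the adjusted p threshold of 0.05, 31.8% being higher and 34% lower in the amygdala, and 10.4% had all 12 dorsal raphe libraries above all 12 amygdala ones. Passing the test was thus common, while 1.32% of genes, 197 in all, had a log2 difference larger in size than that of Th.

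For Drd2 the same comparison found no called difference between the regions. Its mean was 23.9 ± 16.6 CPM for amygdala and 22.1 ± 2.54 CPM for dorsal raphe libraries (SD, n = 12 each), a log2 difference of 0.058 (SE 0.28, interval -0.53 to 0.65, edgeR adjusted p = 0.868). Of the amygdala libraries, 5 lay above and 5 below every dorsal raphe library, so similar means stood over unlike spreads. In the earlier libraries alone the log2 fold change was 0.33 (edgeR adjusted p = 0.36), and in the later ones alone it was -0.91 and passed (edgeR adjusted p = 0.0187), with amygdala means of 29.9 and 11.7 CPM. The fit uses 1 estimate of spread per gene over both regions, although for Drd2 and Th the regions' spreads differ widely. In bulk tissue, fewer cells of a type and less RNA per cell cannot be told apart, for this and every other comparison here.

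The lines were then compared within each region, the contrast for which the rats were bred. In the amygdala the mean of Drd2 was 30.6 ± 19.0 CPM for high-responder libraries against 17.2 ± 11.7 CPM for low-responder ones (SD, n = 6 each), a log2 difference of 0.83 (SE 0.51, interval -0.25 to 1.92, edgeR adjusted p = 0.716). High-responder libraries 1, 3 and 4 lay above every low-responder library, and low-responder libraries 1 and 6 lay below every high-responder one. The difference did not exceed the spread between libraries and its interval includes 0, although only 110 genes (0.771%) had a log2 difference larger in size. Th in the amygdala averaged 2.31 ± 0.454 and 2.09 ± 0.459 CPM, a log2 difference of 0.15 (SE 0.19, interval -0.26 to 0.55, edgeR adjusted p = 0.89). Only 0.021% of 14265 genes, 3 in all, passed in this comparison.

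In the dorsal raphe neither gene was called between the lines. The mean of Th was 31.2 ± 15.7 CPM for high-responder libraries against 27.3 ± 20.2 CPM for low-responder ones (SD, n = 6 each), a log2 difference of 0.18 (SE 0.49, interval -0.88 to 1.23, edgeR adjusted p = 0.999). Low-responder libraries 1, 2 and 3 lay below every high-responder library and low-responder library 5 lay above every one, so the low-responder range enclosed the high-responder one. Without low-responder library 2 the log2 difference was -0.0041, and in the later libraries alone it was -0.16. Drd2 averaged 22.7 ± 1.14 and 21.4 ± 3.46 CPM, a log2 difference of 0.074 (SE 0.10, interval -0.15 to 0.29, edgeR adjusted p = 0.999). This was the narrowest of the 4 intervals between lines. The share of genes that passed was 0.0625% of 14390.

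The line difference itself was compared between the regions on all 24 libraries. For Drd2 the amygdala difference minus the dorsal raphe difference was 0.75 on the log2 scale (SE 0.57, interval -0.43 to 1.92, edgeR adjusted p close to 1), and for Th it was -0.035 (SE 0.62, interval -1.32 to 1.25). Neither passed, and 0.00668% of 14977 genes, 1 gene, did.

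**Figure D2:**
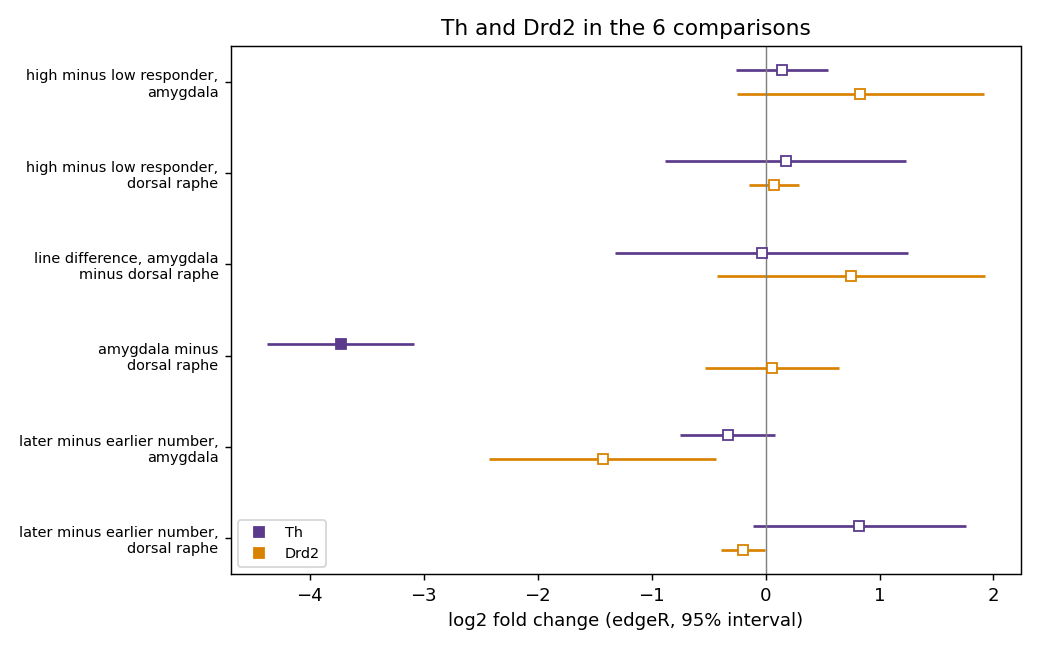
Log2 fold changes of Th (purple) and Drd2 (orange) in the 6 comparisons, with 95% intervals from edgeR on a linear axis; filled squares passed an adjusted p of 0.05. The one filled square is Th between the regions at -3.73, and the intervals of Drd2 are wide where amygdala libraries enter and narrow within the dorsal raphe.

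Levels were also set against the library numbers within lines. Drd2 in the amygdala averaged 29.9 ± 17.0 CPM in the 8 earlier and 11.7 ± 6.41 CPM in the 4 later libraries (SD), a log2 difference of -1.43 (SE 0.46, interval -2.43 to -0.43). It did not pass (edgeR adjusted p = 0.969), although only 16 of 14265 genes had a log2 difference larger in size. In this comparison edgeR called 0% of the genes, with 545 at an unadjusted p under 0.05, while DESeq2 and limma voom each called 2 genes and Drd2 was not called by either. The later libraries lay at 3.27 to 18.0 CPM, within the range of the earlier ones except for low-responder library 6. Th in the dorsal raphe averaged 22.4 ± 15.2 CPM in the 7 earlier and 38.9 ± 16.8 CPM in the 5 later libraries, a log2 difference of 0.82 (SE 0.43, interval -0.11 to 1.75, edgeR adjusted p = 0.13), where 48.1% of 14390 genes passed. It passed without low-responder library 4 (1.15, edgeR adjusted p = 0.0298), an earlier library at 46.0 CPM, and with limma voom (1.14, adjusted p = 0.0129). Drd2 in the dorsal raphe averaged 23.3 ± 1.74 CPM in earlier and 20.4 ± 2.68 CPM in later libraries, a log2 difference of -0.20 (SE 0.09, interval -0.39 to -0.0024, edgeR adjusted p = 0.0857). It passed without high-responder library 6 (-0.23, edgeR adjusted p = 0.0481) and with library size as the only scaling (-0.27, edgeR adjusted p = 0.0375). High Th values were not restricted to later numbers, since earlier high-responder library 1 and earlier low-responder library 4 stood at 42.4 and 46.0 CPM.

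How unusual this unevenness is was described by the SD of log2 CPM (prior count 2) around the line means. In the amygdala the SD of Drd2 was 1.14, against a median of 0.205 over 14265 genes, and only 50 genes had a larger one. Among the 4763 genes with a mean CPM within 2-fold of that of Drd2, the median was 0.182 and 9 genes had a larger SD. In the dorsal raphe the SD of Th was 0.952, against a median of 0.241 over 14390 genes, and 97.9% of genes had a smaller one. The same 2 genes were ordinary in the other region. Drd2 in the dorsal raphe had an SD of 0.175, larger than that of 32.5% of genes. Th in the amygdala had 0.291, larger than 71.2% of all genes but than only 23.8% of the 2227 genes of similar CPM, where low counts widen every SD. These values are a description and no test of spread was made.

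**Figure D3:**
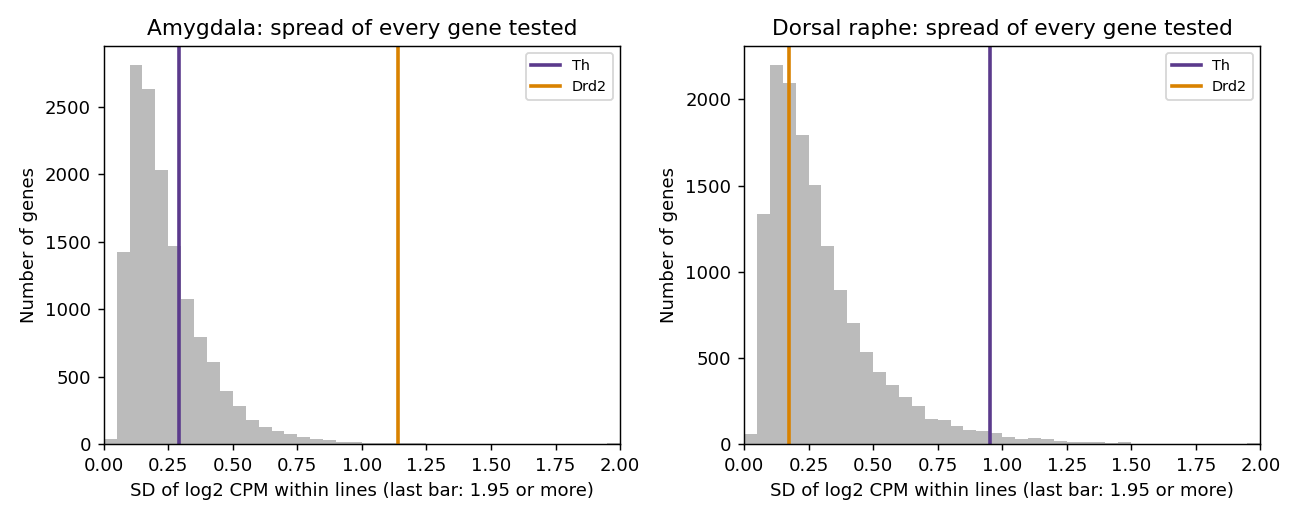
Number of genes (y axis) by SD of log2 CPM within lines (x axis, last bar holds all larger values) in the amygdala (left) and the dorsal raphe (right), with lines at Th (purple) and Drd2 (orange). Drd2 lies at 1.14 in the far tail of the amygdala and at 0.175 near the peak in the dorsal raphe, while Th lies at 0.291 and 0.952.

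The genes that followed Drd2 most closely were looked up by Pearson's r of log2 CPM over the 12 amygdala libraries, line means subtracted, among 14026 genes with a mean of at least 1 CPM. The closest was ENSRNOG00000001302 with r of 0.983, and the next ENSRNOG00000026953 with 0.975. In high-responder libraries 1 to 6 ENSRNOG00000001302 stood at 77.9, 13.4, 94.0, 98.6, 24.04 and 32.3 CPM. In low-responder libraries 1 to 6 it stood at 9.69, 50.7, 92.1, 39.6, 19.8 and 3.27 CPM. As for Drd2, low-responder library 6 was the lowest and high-responder library 4 the highest of the 12. ENSRNOG00000026953 ranged from 37.5 to 304.9 CPM, with the same 2 libraries at its ends. Without the libraries where Drd2 was lowest and highest, r was 0.974 and 0.972, and in the 8 earlier libraries it was 0.973 and 0.974.

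Unlike Drd2, both IDs were far lower in the dorsal raphe. ENSRNOG00000001302 averaged 46.3 ± 35.5 CPM over amygdala and 3.29 ± 1.04 CPM over dorsal raphe libraries (SD, n = 12 each), a log2 difference of 3.77 (SE 0.43, edgeR adjusted p = 4.17e-08). ENSRNOG00000026953 averaged 144.2 ± 90.6 and 7.38 ± 1.47 CPM, a log2 difference of 4.24 (SE 0.29, edgeR adjusted p = 3.75e-12). At r of at least 0.9 there were 39 genes (0.278%), with 19 at a negative r of that size. Of the 39, 24 were called higher in the amygdala (61.5%) and 13 lower (33.3%). Over the 14017 genes tested that passed the same minimum of 1 CPM in the amygdala, these shares were 33.6% and 32.1%. That minimum was set in the amygdala alone, which favours genes higher there, both in the 39 and in the genes beside them. Between the lines in the amygdala 0 of the 39 were called, where 0.021% of all genes were, and 37 had a log2 difference above 0, as Drd2 had, against 49.4% of genes over the same minimum. Between later and earlier amygdala libraries 0 of the 39 were called and 0 had a log2 difference above 0, with a median of -0.56, against 48.5% of genes above 0. This second shift was the larger, since the median between the lines was 0.45. These genes were picked for their likeness to Drd2 in the same libraries, so their shared directions, above all by library number within lines, are not separate evidence. All share library and depth with Drd2.

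Th had few close followers in the dorsal raphe. Among 14186 genes with a mean of at least 1 CPM, 2 reached r of 0.9 with Th (0.0141%), and 26 reached 0.8. More genes ran opposite to Th, 53 with a negative r of size 0.8 or more and 4 of size 0.9 or more. Of the 26, 6 were called higher in the amygdala (23.1%) and 9 lower (34.6%). Over the genes that passed the same minimum in the dorsal raphe, these shares were 30.8% and 35.3%. Between the lines in the dorsal raphe 0 of the 26 were called, where 0.0353% of genes over that minimum were called higher and 0.0282% lower. Between later and earlier dorsal raphe libraries all 26 had a log2 difference above 0, as Th had. Over the same minimum 53.1% of genes were above 0. Of the 26, 9 were called higher (34.6%) and 0 lower, where 24.3% of all genes tested were called higher and 23.8% lower. The choice by likeness to Th within lines bears on that direction too. The closest, ENSRNOG00000024798 at 0.904, moved little, from 5.09 to 10.7 CPM. Unlike Th, it was called higher in the amygdala, with means of 9.60 ± 1.22 CPM there and 7.79 ± 1.66 CPM in the dorsal raphe (SD). That log2 difference was 0.30 (SE 0.10, edgeR adjusted p = 0.0131). The next, ENSRNOG00000017302 at 0.903, moved more than Th. In high-responder libraries 1 to 6 it stood at 35.6, 7.05, 2.32, 22.1, 15.6 and 9.71 CPM, and in low-responder libraries 1 to 6 at 1.51, 2.05, 4.17, 31.9, 16.2 and 5.80 CPM. It was high in the same high-responder libraries 1, 4 and 5 and low-responder libraries 4 and 5 in which Th lay above its gap. In the amygdala it had 0 or 1 count in each library. It met the minimum of 1 CPM through the dorsal raphe alone, so no test between the regions is given for it by itself. It is among the 9 genes counted above as lower in the amygdala, and its call there is no separate evidence. Within the 7 earlier dorsal raphe libraries its r with Th was 0.955.

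**Figure D4:**
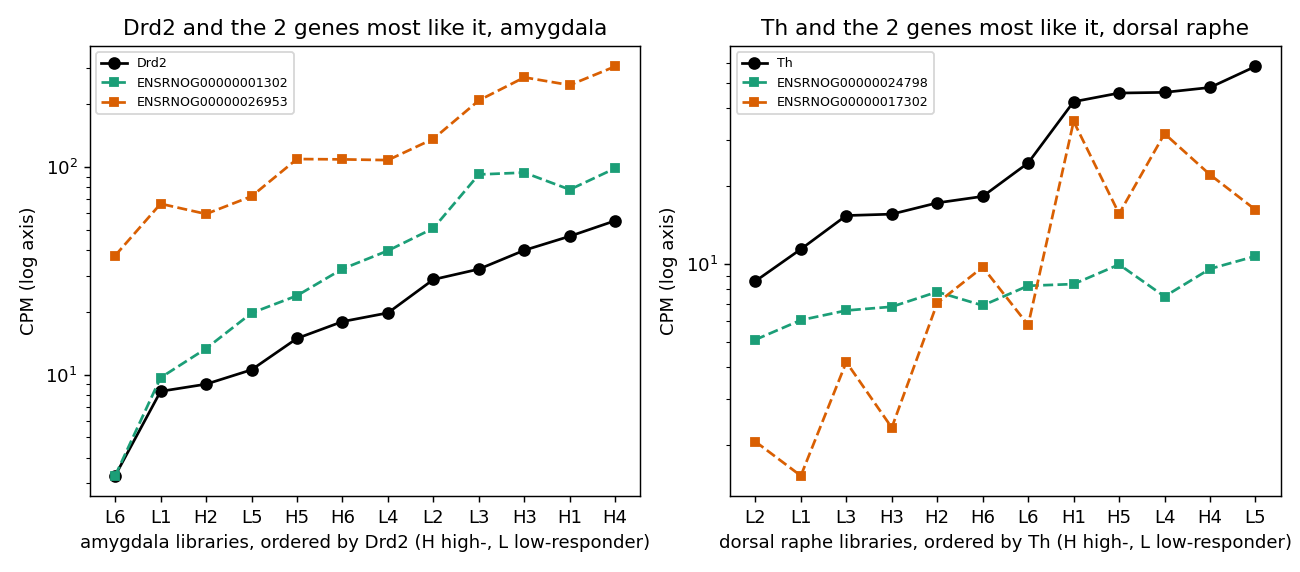
CPM on a log axis of Drd2 and its 2 most similar genes in the 12 amygdala libraries (left) and of Th and its 2 most similar genes in the 12 dorsal raphe libraries (right), libraries ordered by the black line. On the left all 3 lines are lowest at low-responder library 6 (L6) and highest at high-responder library 4 (H4), and those of the 2 similar genes dip on the way. On the right ENSRNOG00000017302 is high in the 5 libraries where Th is at 42.4 CPM or more, and ENSRNOG00000024798 stays between 5.09 and 10.7 CPM.

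Whether Th and Drd2 varied together was asked within each region. In the amygdala Pearson's r of log2 CPM was 0.41 (permutation p = 0.186, adjusted over 8 values 0.372) and Spearman's rho 0.43 (permutation p = 0.168, adjusted 0.372, n = 12). Without the 2 libraries farthest from the median of Th, r was 0.53 and rho 0.49. In the dorsal raphe r was -0.23 (permutation p = 0.498, adjusted 0.569) and rho -0.25 (permutation p = 0.429, adjusted 0.569, n = 12). There r was 0.10 and rho -0.079 without the 2 farthest libraries, so their signs differed. Without low-responder library 5, which had the most Th and the least Drd2, r was 0.17. In the 7 earlier dorsal raphe libraries r was 0.77 (exact permutation p = 0.0425, adjusted 0.17) and rho 0.82 (exact permutation p = 0.0341, adjusted 0.17), and in the 8 earlier amygdala libraries r was 0.19 (exact permutation p = 0.674, adjusted 0.674) and rho 0.31 (exact permutation p = 0.462, adjusted 0.569). No relation held after adjustment in either region, and the 5 and 4 later libraries were too few for a value of their own.

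**Figure D5:**
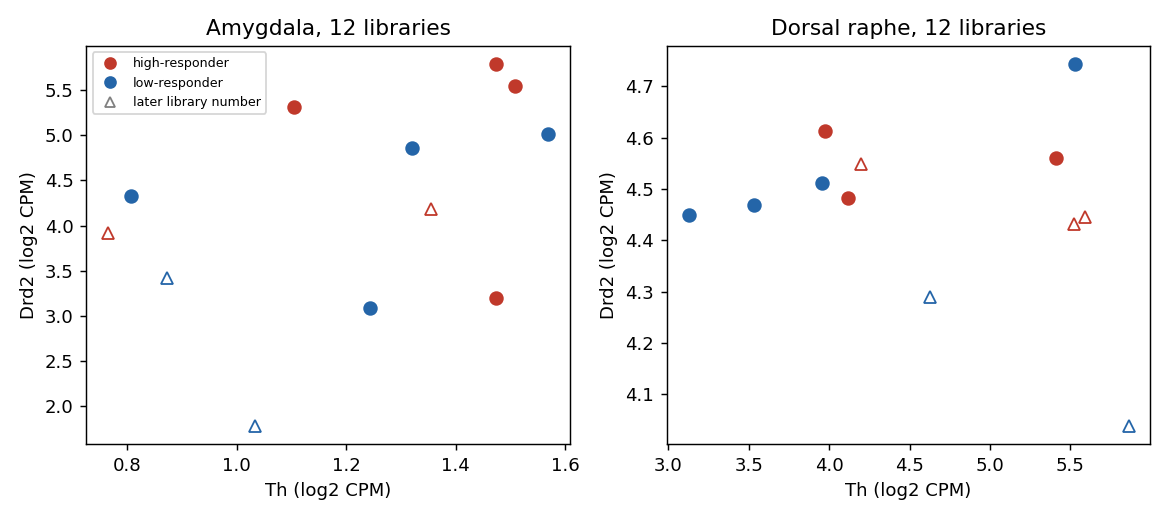
Drd2 against Th, both in log2 CPM, in the 12 amygdala (left) and the 12 dorsal raphe libraries (right), colored by line with open triangles for later library numbers. The amygdala points scatter (r of 0.41) and in the dorsal raphe low-responder library 5 sits apart at the lower right.

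Whether the amygdala libraries with much Drd2 hold striatal tissue, or the dorsal raphe libraries with much Th more dopamine neurons, was not tested. Defining markers of dopamine, noradrenaline, serotonin and striatal neurons, and the other genes of dopamine synthesis, transport, breakdown and signalling, had been listed by symbol, and the tables and the reference used here pair 0 of 32662 IDs with a symbol. The labelled regions were for the same reason not checked against their own markers.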

How the data were processed

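Poly-A libraries were made from RNA extracted with a Qiagen miRNeasy kit, per the labels' protocols. Trim Galore, STAR and the build rn6 are named in the submitters' processing notes. Versions, the counting program, the annotation, the strand setting and the treatment of multi-mapping reads are not given in the sources used here, and the Drd2 and Th transcript forms cannot be told apart in a count per gene. The deposited values are raw counts per Ensembl gene ID, 1 table per library, with 0 lines that name no gene.

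Groups came from the labels. No 2 libraries of a group agreed within sampling noise (the lowest chi-square over its degrees of freedom was 3.46), so all were kept as separate. Counts were tested with edgeR 4.0.16 (glmQLFit, glmQLFTest) in R 4.3.3 after filterByExpr and TMM scaling, fitted on every gene, and genes were called at a Benjamini-Hochberg adjusted p below 0.05. SE is the log2 fold change over the square root of F, and intervals use its t distribution. Line and library number were tested on the 12 libraries of a region, the other contrasts on all 24. Correlations used SciPy 1.17.1 and NumPy 2.4.6, with 100000 random pairings for 12 libraries, all pairings for 7 or 8, two-sided.

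The genes, the lists and the earlier and later stretches were chosen with earlier results of these data known. The r thresholds of 0.8 and 0.9 and the description of spread were chosen after the values were seen. Similar genes were the 5 with the highest r, of which 2 IDs per gene are named because no symbols were at hand.

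In simulated counts with known changes, 95.5% of genes changed 2-fold and 58.2% of those changed 1.5-fold were recovered in the amygdala line comparison (14191 genes). These shares were 94% and 53.7% in that of the dorsal raphe (14310 genes) and 77.6% and 22.4% for the line difference between regions (14795 genes). Of the genes called, 3.45%, 6.25% and 7.69% were false in these comparisons. Every simulated gene had the same dispersion, a smaller spread than that of Drd2 in the amygdala (SD 1.14) or Th in the dorsal raphe (SD 0.952). The recovered shares therefore do not apply to those genes there. More genes were also called in the simulated counts than in the data. These were 174 against 3 in the amygdala line comparison, 176 against 9 in that of the dorsal raphe and 143 against 1 for the line difference between regions. An adjusted p below 0.05 was thus easier to reach in the simulation, and the shares cannot be read as recovery in the data. Alternatives were RLE and library size scaling, 2 other filters, limma 3.58.1 (voom, quality weights), DESeq2 1.42.0, a replicate block, a term for library number, each stretch of numbers alone, and leaving out each library.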

Additional observations from a re-analysis of the deposited data

How the results depend on the processing

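All 34 other settings gave lower Th in the amygdala than in the dorsal raphe, with log2 differences of -4.39 to -3.21, and Th passed in each. Drd2 between the regions changed sign in 7 of 34: it was -0.33 with limma voom, -0.22 with a replicate block, -0.91 in later libraries alone and -0.084 to 0.17 with 1 library left out. The Drd2 difference between the lines stayed above 0 and uncalled in all 22 other settings of each region, at 0.59 to 1.33 in the amygdala and 0.0046 to 0.30 in the dorsal raphe. That of Th in the dorsal raphe was -0.16 in later libraries alone and -0.0041 to 0.56 with 1 library left out. The Th line difference between regions was 0.074 with limma voom, 0.043 with a term for later numbers, 0.29 in later libraries alone and -0.41 to 0.15 with 1 library left out. Between later and earlier dorsal raphe libraries Th passed with limma voom (1.14) and ran from 0.49 to 1.15 with 1 library left out, and Drd2 passed with library size only (-0.27) and ran from -0.23 to -0.14. Pearson's r of Th with Drd2 in the dorsal raphe ran from -0.47 to 0.17 with 1 library left out. The cause of these shifts was not tested.

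The replicate block changed no call of Th or Drd2 between the lines, between the regions or for the line difference between regions, and was not run for later against earlier libraries. The numbers 1 to 6 in the sample labels were not taken to pair the samples. Deviations of libraries with the same label number from their group means correlated at -0.522 to 0.651. Of 6 pairs, 1 to 3 correlated above 0.1 per pair of groups, and 0 to 2 libraries correlated best with their own label number. The number of genes called between the lines depended on the setting, with 3 in the amygdala against 82 with DESeq2, 246 with limma voom, 61 in later and 0 in earlier libraries alone, 1 with RLE, library size only or no filter and 1 to 27 with 1 library left out. In the dorsal raphe the 9 genes became 39, 26, 0 and 16 in the first 4 of these, 5 with the replicate block and 3 to 12 with 1 library left out. For the line difference between regions, 1 gene became 2 with limma voom and in earlier libraries and 0 in later ones. Low counts limit Th in the amygdala, where 17 to 54 reads carry each value.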
